A study of Mus musculus with 6 samples.

Results

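The 76 genes described here carry the symbols of proteins of the cytoplasmic ribosome, the particle that translates nuclear messenger RNA, and 75 of them are annotated as protein-coding. They were taken from 55487 genes by symbol (Rpl or Rps with a number, and Rplp0, Rplp1, Rplp2 and Rpsa) and by a mean value of at least 6 over 6 libraries. The symbols matched 83 genes, and 46 large subunit and 30 small subunit genes passed the minimum. RNA-seq of total RNA was done on Kit-positive (cKIT+) mouse bone marrow cells, a population that holds haematopoietic stem and progenitor cells. The cells carried a lentivirus that overexpressed MLLT3, in its wild type form in 3 libraries (WT) and as the double substitution K63E K67E in 3 libraries (DM). They were sorted and grown in methylcellulose for 8 days with Flt3L at 10 ng/mL, and with further cytokines, among them EPO, SCF, GM-CSF, IL-3, IL-6 and IL-11, at 20 ng/mL each. Both groups also received 4-hydroxytamoxifen at 200 nM to delete the endogenous Mllt3 gene, so no group kept it by design. Age, sex and strain of the mice, the number of mice, the Cre driver and the promoter of the vector are not given in the sources used here. The labels do not say that replicates came from separate animals or cultures, and p-values then measure only the spread between these samples. All 6 libraries are labelled batch 1.

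Each ribosome carries a single copy of most of its proteins, so cells make them in matched amounts, and an unbound excess is degraded. Their messenger RNAs begin with a run of pyrimidines at the 5′ end (the TOP motif), through which the kinase mTORC1 and the binding protein LARP1 control their translation as a group. In blood formation they are known from Diamond-Blackfan anaemia and from the 5q minus syndrome, in which loss of a single allele of such a gene impairs red cell production. The genes are also known for processed copies, intronless DNA copies of their messenger RNAs that lie at other places in the genome.

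Values are regularized log (rlog) values as the authors deposited them. They are on the log2 scale, scaled for library size, with low values pulled toward the gene's mean. They hold no counts, so the depth of the libraries is unknown. A change is the mean of DM minus the mean of WT on that scale, tested with limma over all 18766 genes with a mean of at least 3, at a Benjamini-Hochberg adjusted p under 0.05. Kit stood between 14.29 and 14.90 in the 6 libraries, and the lymphoid genes Cd3e and Ms4a1 were below the tested range. Mllt3, targeted for deletion and supplied by the vector, stood at 12.87, 12.60 and 12.44 in the WT libraries and at 12.44, 12.03 and 11.99 in the DM libraries. The change was -0.48 (SE 0.137, limma adjusted p 0.0448), and the call was lost in 6 of 12 alternatives, among them the fits without WT replicate 1 and without DM replicate 2.

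No ribosomal protein gene was called different between DM and WT by limma, either higher or lower, in the large or in the small subunit. Over all tested genes 13.9% were called, 9.2% higher and 4.71% lower. A single member, Rps28, had an unadjusted p under 0.05, against 5415 of the 18766 tested genes (28.9%). The lowest adjusted p among the members was 0.134. In bulk RNA, fewer cells of a type and less RNA per cell cannot be told apart. The 46 large subunit genes had a median change of -0.01, with 22 above 0 and 24 below. The 30 small subunit genes had a median of -0.04, with 9 above 0 and 21 below. The median over all tested genes was 0.01. The 3071 other protein-coding genes with a mean of at least 11, the range in which all but 2 of the members lie, had a median of 0.12, and 27.4% of them were called. Member changes ran from -0.20 (Rpl10a) to 0.27 (Rps29), with SE between 0.075 and 0.132. The 95% intervals of the members reached from -0.41 to 0.56, so larger changes than these lay outside every member's interval.

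The subunits kept the same distance from each other in every library. The mean over large subunit genes was 12.91 ± 0.0899 (SD, n = 3) in WT and 12.90 ± 0.109 in DM, and over small subunit genes 13.26 ± 0.092 in WT and 13.25 ± 0.105 in DM. The mean of the large minus the mean of the small subunit was -0.352 ± 0.00627 in WT and -0.347 ± 0.00554 in DM. This spread is more than 10 times smaller than that of either subunit's own mean. The members as a whole moved up and down together between replicates. The mean of all 76, by replicate number, was 13.14, 13.04 and 12.96 for WT, and 13.09, 13.11 and 12.91 for DM. In WT replicate 1, 72 members lay above their own mean over the libraries, in WT replicate 2 it was 41 and in WT replicate 3 it was 4. The same count was 70, 53 and 1 in DM replicates 1 to 3. High and low libraries were thus found in both groups, and the groups overlapped. In both groups this count fell from replicate 1 to replicate 3.

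**Figure D1:**
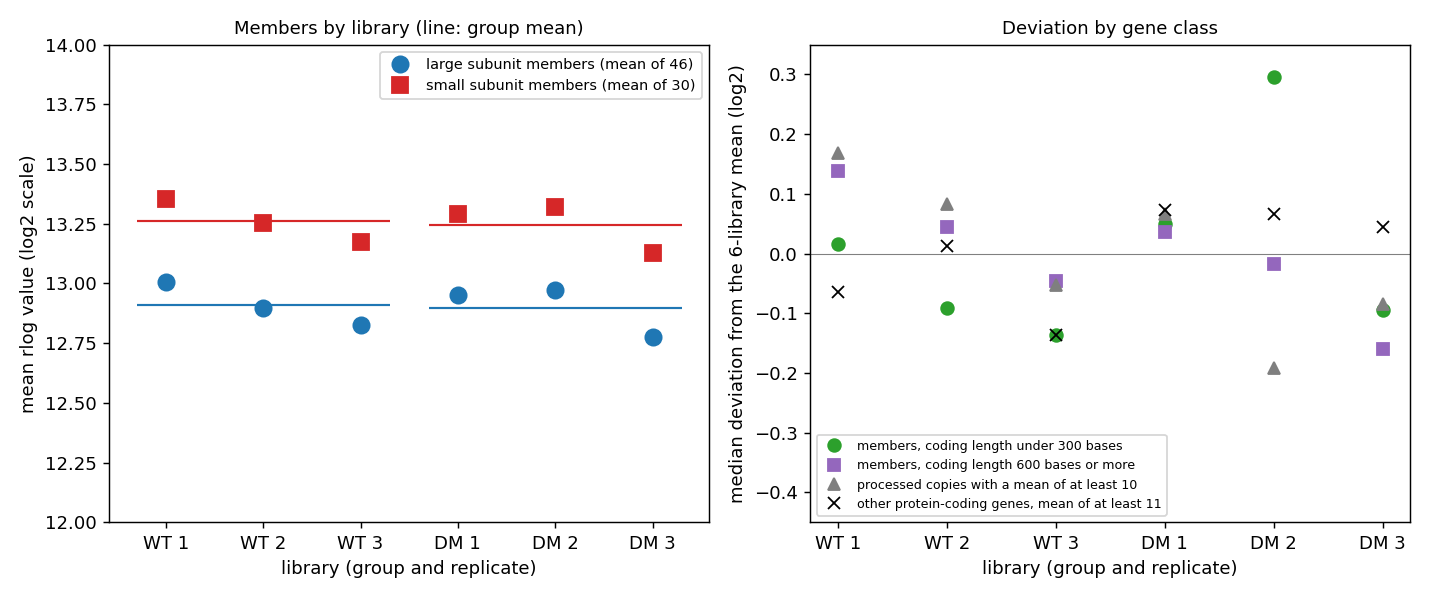
Left, mean rlog value (log2 scale) of the 46 large subunit and 30 small subunit genes in each library, with lines at the group means; the subunits run in parallel and the groups overlap. Right, median deviation (log2) from the mean over the 6 libraries for 4 classes of genes. DM replicate 2 is high for the members with a coding length under 300 bases (0.30) and low for the copies (-0.19).

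Summed on the linear scale, the members made up 3.24%, 2.83% and 2.99% of the sum of all protein-coding genes in WT and 2.77%, 2.72% and 2.50% in DM. The share was 3.02% ± 0.207 (SD, n = 3) in WT and 2.67% ± 0.144 in DM, and the groups did not overlap. This share divides by a sum in which the highest genes weigh most, and Lyz2, the lysozyme of macrophages, had 17.81, 18.28 and 17.60 in WT and 18.57, 19.00 and 18.69 in DM. The difference in the share and the part of Lyz2 in it were not tested.

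The size of the members' median depended on the scaling, and its sign on single libraries. Quantile normalization, which gives all libraries the same distribution, took the median to -0.15 in the large and -0.19 in the small subunit, with 68 of 76 members below 0. Under it 17 members were called lower and none higher, 9 large and 8 small, where 6.88% of all tested genes were called lower. The small subunit genes included Rpsa, Rps6, Rps27a, Rps20, Rps16 and Rps2, and the 9 large subunit genes were Rpl3, Rpl10a, Rpl28, Rpl5, Rpl12, Rplp0, Rpl8, Rpl6 and Rpl7a. The same normalization moved the highly expressed other protein-coding genes from a median of 0.12 to 0.01, and the share of higher genes among all called genes from 66.1% to 51.3%. Under both scalings, then, the members' median stood below that of these other genes, by a difference that was not tested. The sets differ in level, with a median value of 13.14 for the members and 11.90 for the other genes. Without WT replicate 1 the median over all members was 0.03, with 44 of 76 above 0, and without DM replicate 3 it was 0.02, with 48 above 0. With a block for the replicate number, 3 members were called lower (Rpl10a, Rps6 and Rpsa), where 5.91% of all tested genes were.

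The genes at both ends of the range were picked out after their values were seen, except Rpsa, Rps6, Rpl13a and Rpl39, which were named for their roles. Positions are from GENCODE M21 on GRCm38, the build (mm10) in the submitters' processing notes. Rps29, a zinc-binding protein of the small subunit head and a Diamond-Blackfan gene, had 11.82, 11.84 and 11.76 in WT and 11.95, 12.43 and 11.84 in DM. The groups met without overlap, and DM replicate 2 stood far above the other DM libraries. The change was 0.27 (SE 0.132, limma adjusted p 0.209), and 0.09 without DM replicate 2. Rps28, which lies at the exit of the messenger RNA channel and is also a Diamond-Blackfan gene, had 12.67, 12.45 and 12.52 in WT and 12.76, 13.02 and 12.64 in DM. The lowest DM value was below the highest WT value. Its change was 0.26 (SE 0.104, limma adjusted p 0.134), and 0.15 without DM replicate 2. Rpl41 (chromosome 10, 128548114 to 128549305, minus strand), which encodes the shortest ribosomal protein, had 13.15, 12.93 and 13.04 in WT and 13.20, 13.50 and 13.12 in DM, again with DM replicate 2 highest. It changed by 0.23 (SE 0.107, limma adjusted p 0.185), and by 0.12 without that library. Rpl39, which lines the tunnel through which the new protein leaves, had 12.32, 12.15 and 12.09 in WT and 12.37, 12.64 and 12.21 in DM. The change came to 0.22 (SE 0.111, limma adjusted p 0.224), and 0.10 without DM replicate 2.

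At the other end, Rpl10a (chromosome 17, 28328471 to 28331033, plus strand), a protein of the flexible L1 stalk next to the exit site of transfer RNA, had 12.26, 12.12 and 11.97 in WT and 12.06, 11.85 and 11.86 in DM. The groups overlapped at WT replicate 3 and DM replicate 1. The change was -0.20 (SE 0.093, limma adjusted p 0.187), and -0.13 without WT replicate 1. Rpsa (chromosome 9, 120127689 to 120132369, plus strand), a small subunit protein near the messenger RNA exit that also has a history as a laminin receptor, had 14.98, 14.91 and 14.82 in WT and 14.76, 14.81 and 14.58 in DM. Every DM value was below every WT value, and the change was -0.19 (SE 0.093, limma adjusted p 0.213), or -0.12 without DM replicate 3. Rps6 (chromosome 4, 86854660 to 86857412, minus strand), the small subunit protein that S6 kinase phosphorylates, had 13.19, 13.09 and 13.01 in WT and 13.04, 12.87 and 12.85 in DM. It changed by -0.18 (SE 0.083, limma adjusted p 0.191), and the groups overlapped at WT replicate 3 and DM replicate 1. Rpl13a, a large subunit protein also known for silencing inflammatory transcripts in monocytes, had 9.59, 9.50 and 9.42 in WT and 9.46, 9.30 and 9.23 in DM (change -0.17, SE 0.081, limma adjusted p 0.19), with the same overlap. Over all 76 members, the groups did not overlap for 2 that were higher (Rps29 and Rps27l) and 1 that was lower (Rpsa), where 21.5% of tested genes were higher and 14.3% lower without overlap.

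**Figure D2:**
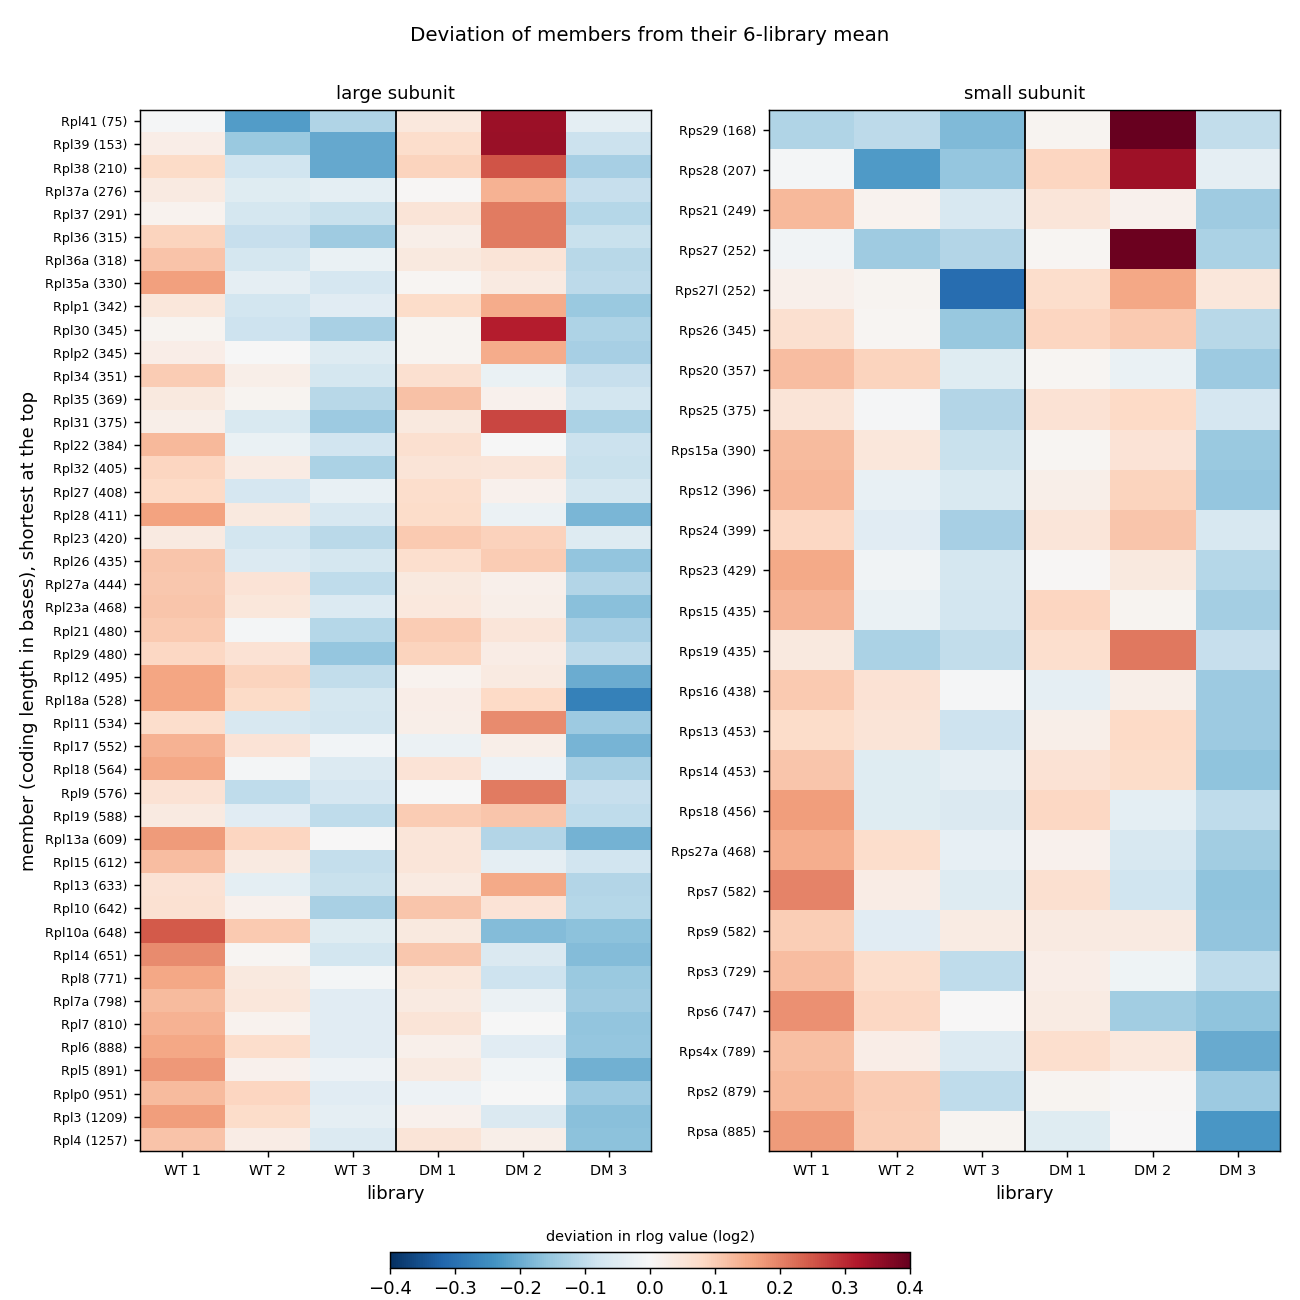
Deviation of 71 protein-coding members from their means over the 6 libraries (colour, rlog value on the log2 scale), large subunit on the left and small subunit on the right, ordered by coding length in bases with the shortest at the top; values beyond the colour scale take its end colours. WT replicate 3 and DM replicate 3 are low for nearly all members, and DM replicate 2 is high for the short ones.

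The changes were ordered by the length of the protein. Across the 75 protein-coding members, Spearman's rho between the change and the coding length (bases without the stop codon) was -0.69, a description over genes that share the same 6 libraries. It was -0.64 without DM replicate 2 and -0.73 after quantile normalization. Other traits of the same members went the same way, with rho of -0.57 for the number of exons, -0.46 for the transcript length and -0.31 for the mean value. The part of each trait was not tested. The 10 members with a coding length under 300 bases had a median change of 0.18, and Rps21 (-0.05) was the only one of them below 0. The 27 members from 300 to under 450 bases had a median of 0.01, the 17 from 450 to under 600 bases -0.06, and the 21 of 600 bases or more -0.09, with 18 of the 21 below 0. Among the longest were Rpl4 (1257 bases, change -0.06), which reaches into the exit tunnel, and Rpl3 (1209 bases, change -0.14), which reaches to the site of peptide bond formation. Large and small subunit genes followed the same order, with medians of 0.14 and 0.18 below 300 bases and -0.10 and -0.09 at 600 or more. Among 7216 other protein-coding genes with a mean of at least 9, histones left out, rho was -0.08, and the medians of the same 4 length classes were 0.16, 0.14, 0.14 and 0.10.

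The contrast between short and long members was widest in DM replicate 2. In that library the short members stood at a median of 0.30 above their own means and the long members at -0.02. The short members deviated by 0.02, -0.09 and -0.14 in the WT libraries, and by 0.05 and -0.10 in DM replicates 1 and 3. The long members deviated by 0.14, 0.04 and -0.05 in the WT libraries, and by 0.04 and -0.16 in DM replicates 1 and 3. Spearman's rho between deviation and coding length was 0.58, 0.59 and 0.50 in the WT libraries. In DM replicates 1, 2 and 3 it was -0.13, -0.61 and -0.58. Without DM replicate 2 the median change of the short members was 0.07, and that of the long members -0.11. Copies of the members moved the other way in the same library, since 65 of the 66 copies with a mean of at least 10 lay below their own mean in DM replicate 2, at a median of -0.19.

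**Figure D3:**
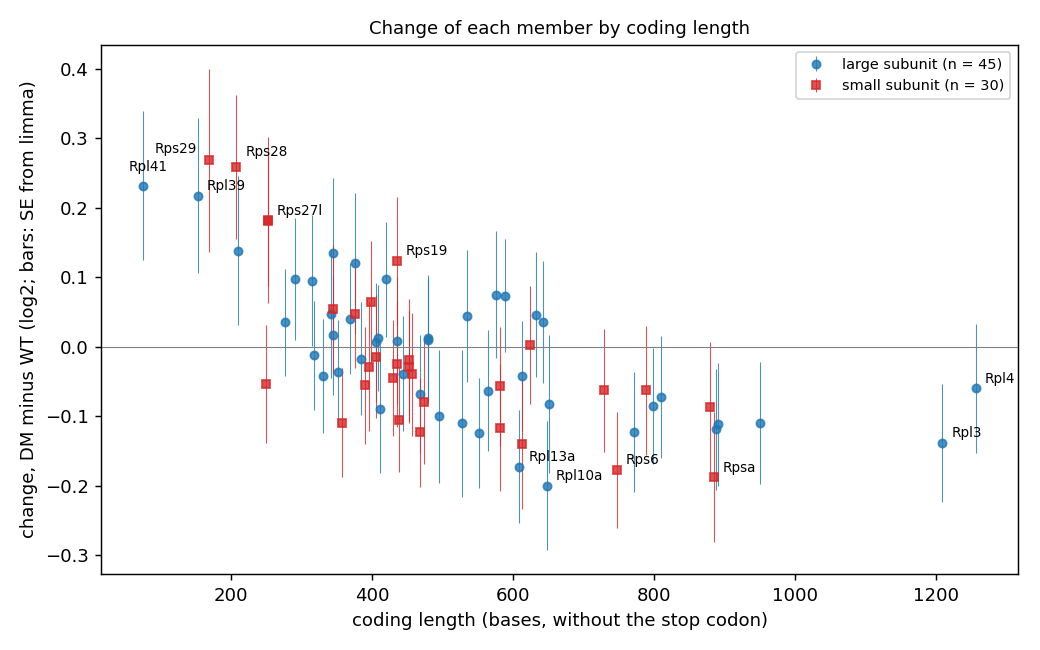
Change of each protein-coding member (DM minus WT, log2; bars, SE from limma) against its coding length in bases, for 45 large and 30 small subunit genes. Members under 300 bases lie mostly above 0 and members of 600 bases or more mostly below.

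The copies matter because a short read can match a gene and its copy equally well, and how such reads were assigned is not given in the sources used here, so the values of genes with close copies are uncertain. A search of annotated pseudogenes and retained copies found 1046 copies of 73 of the 75 protein-coding members, at 90% identity or more over at least 50% of the coding length. The search did not select by the type of pseudogene or by introns, so some copies may not be processed ones. Of these, 336 had a mean of at least 3, and limma called 0 of them, where 13.9% of all tested genes were called. A gene held a median of 75.2% of the linear sum of itself and its copies, called its family here. In 13 families the gene held under 50%, and in 17 at least 90%. The coding sequences that follow show how close the gene and its highest copy are. They come from GENCODE M21 on GRCm38, and a capital marks a base at which the copy differs.

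Rps10 (chromosome 17, 27630418 to 27636669, minus strand) is a protein of the beak of the small subunit and a Diamond-Blackfan gene, and Rps10-ps1 (chromosome 3, 95622278 to 95622772, plus strand) differs from it at 6 of 495 coding bases. Coding bases 226 to 285 hold 3 of these.
Rps10: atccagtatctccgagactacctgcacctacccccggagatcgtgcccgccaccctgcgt
Rps10-ps1: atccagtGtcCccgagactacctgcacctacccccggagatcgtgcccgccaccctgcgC
Rpl24 (chromosome 16, 55966275 to 55971435, plus strand) forms a bridge between the subunits, and Gm9385 (chromosome 9, 116040593 to 116041064, minus strand) differs from it at 1 of 471 bases, within bases 254 to 313.
Rpl24: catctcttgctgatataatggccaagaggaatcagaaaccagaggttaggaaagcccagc
Gm9385: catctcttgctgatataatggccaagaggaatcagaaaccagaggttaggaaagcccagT
Rpl39 (chromosome X, 37082520 to 37085402, minus strand) and Rpl39-ps (chromosome 15, 102635038 to 102635188, plus strand) differ at 1 of 150 bases compared, within bases 37 to 96.
Rpl39: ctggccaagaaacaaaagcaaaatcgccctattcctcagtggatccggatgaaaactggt
Rpl39-ps: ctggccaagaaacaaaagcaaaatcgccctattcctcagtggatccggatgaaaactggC
Rps28 (chromosome 17, 33819027 to 33824562, minus strand) and Gm10443 (chromosome 6, 86334031 to 86334240, plus strand) are identical over all 207 bases, of which the first 60 are given.
Rps28 and Gm10443: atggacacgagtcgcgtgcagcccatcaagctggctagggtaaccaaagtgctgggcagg

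In 2 families the gene stayed below the minimum for members while a copy stood high. Rps10 itself stood at 5.91, 5.96 and 5.89 in WT and 5.68, 5.77 and 5.99 in DM, just under the minimum of 6, while Rps10-ps1 had a mean of 11.92. The gene held 1.16% of its family, and the family changed by -0.17 (SE 0.085, limma adjusted p 0.214). Rpl24 had a mean of 4.42 and Gm9385 one of 12.10, so that the gene held 0.479% of a family whose change was -0.04. The other genes below the minimum were Rpl3l (5.29), a paralog of Rpl3 known from muscle, Rpl6l (5.17), Rps4l (4.21), Rpl39l (1.78) and Rpl10l (-0.35), the last 2 being paralogs known from the testis. The lowest member was Rpl32l (6.78), which GENCODE M21 annotates as a processed pseudogene. The next were Rpl13a (9.42) and Rpl36a (11.76), well above the minimum.

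Summing each gene with its copies brought the positive changes of the short genes closer to 0 and left most negative changes of the long ones where they were. The Rps28 family, of which the gene held 38.8%, changed by 0.07, against 0.26 for the gene. For Rpl39 the family changed by 0.06 against 0.22 for the gene, and for Rpl38, whose loss in the mouse disturbs the pattern of the skeleton, by 0.03 against 0.14 (0.05 for the gene without DM replicate 2). Rps27, a zinc finger protein of the small subunit, had 11.97, 11.84 and 11.86 in WT and 11.99, 12.37 and 11.85 in DM (change 0.18, SE 0.119, limma adjusted p 0.332), and its change was 0.03 without DM replicate 2. Its copy Rps27rt, identical over all 252 coding bases, had a mean of 12.93, and the family changed by -0.01. The Rps29 family changed by 0.17, against 0.27 for the gene, although the gene held 23.6% of it and Gm14303, with a mean of 13.64, most of the rest. Rpl41 went from 0.23 to 0.15. At the negative end Rpl10a (-0.20 and -0.19), Rpsa (-0.19 and -0.19) and Rps6 (-0.18 and -0.17) were nearly unmoved, Rpl13a, which held 17.5% of its family, went from -0.17 to -0.06, and Rpl5 went from -0.11 to -0.17.

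Over the 75 families 24 changes were above 0 and 51 below. Limma called 0 of the families, where it called 2613 of 18766 tested genes in that setting. The medians were -0.05 in the large and -0.07 in the small subunit, and the SD of the changes fell to 0.0801 from 0.106 for the genes alone. Spearman's rho with the coding length was -0.66. The short members' median was 0.05 as families, and the long members' was -0.10.

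**Figure D4:**
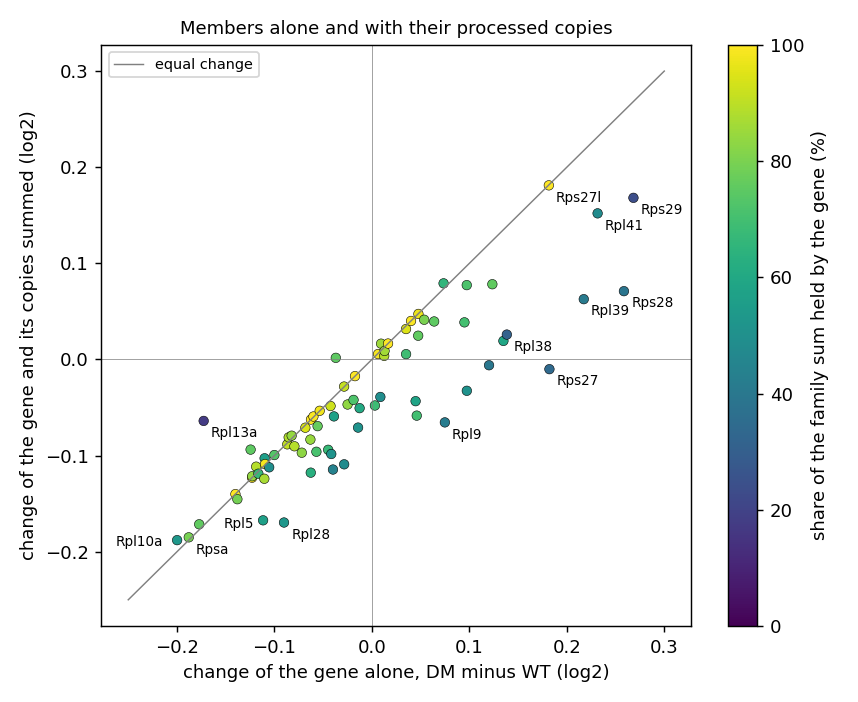
Change of the gene alone (x, DM minus WT, log2) against the change of the gene and its copies summed on the linear scale (y, log2) for 75 members. Colour gives the share of the family sum that the gene holds (%), and the line marks equal change. Rps28, Rpl39, Rpl38 and Rps27 lie well below the line, while Rps27l, Rpl10a and Rpsa lie on or near it.

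Rps27l (chromosome 9, 66946086 to 66949516, plus strand) is the stress-induced paralog of Rps27, a target of p53, and unlike Rps27 it has no copy in the tested range, with 99.8% of its family in the gene. It had 12.14, 12.13 and 11.82 in WT and 12.19, 12.28 and 12.17 in DM. All 3 DM values were above all 3 WT values, and the change was 0.18 (SE 0.094, limma adjusted p 0.231) for the gene and for the family. Without WT replicate 3, the lowest library, it was 0.08. Among other members with a second role, Rpl5 and Rpl11 carry the 5S RNA and bind Mdm2, the inhibitor of p53, when ribosome assembly fails. Rpl5 had 13.52, 13.37 and 13.33 in WT and 13.38, 13.34 and 13.16 in DM (change -0.11, SE 0.089, limma adjusted p 0.423), and its change was -0.05 without WT replicate 1 and -0.04 without DM replicate 3. Rpl11 had 13.22, 13.08 and 13.08 in WT and 13.17, 13.34 and 13.01 in DM (change 0.04, SE 0.095, limma adjusted p 0.782), and its change was -0.04 without DM replicate 2 and -0.10 after quantile normalization. The groups overlapped for both genes. Rpl22, whose loss blocks the development of some T cells, changed by -0.02. Rps27a, made as a fusion with ubiquitin, changed by -0.12 (limma adjusted p 0.322).

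By place in the ribosome, 0 genes were called in each list, where 13.9% of all tested genes were. The stalk that recruits translation factors had Rplp0 at -0.11, Rplp1 at 0.05 and Rplp2 at 0.02, with Rpl12 at its base at -0.10, and all 4 were below 0 after quantile normalization. The 8 genes of the exit tunnel had a median of 0.02 (-0.10 after quantile normalization) and ran from -0.12 (Rpl17) to 0.22 (Rpl39). The 6 genes at the messenger RNA exit and platform had a median of -0.02 and ran from -0.19 (Rpsa) to 0.26 (Rps28). The 3 genes at the messenger RNA entry and the 3 of the beak were all below 0, with medians of -0.06 and -0.11. The beak list holds Rps10, whose own change of -0.11 is that median, although the gene lies under the minimum for members, besides Rps12 (-0.03) and Rps27a (-0.12). After quantile normalization genes were called lower in 4 of these lists, where 6.88% of all tested genes were. They were 2 of the stalk, 2 of the exit and platform, 1 of the entry and 1 of the beak, with 0 of the exit tunnel. Rpl10, which joins the large subunit last, changed by 0.04 (-0.14 after quantile normalization), and Rpl8, next to the catalytic centre, by -0.12. The large subunit members with the smallest changes were Rpl32 and Rpl26 (both 0.01), which were below 0 after quantile normalization.

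The 18 Diamond-Blackfan genes measured had a median change of 0.03, with 11 above 0 and 0 called, where 13.9% of all tested genes were. After quantile normalization their median was -0.10, with 1 called lower, where 6.88% of all tested genes were. Rps19, the gene most often mutated in that disease, had 13.18, 13.01 and 13.04 in WT and 13.21, 13.35 and 13.05 in DM. The groups overlapped, with a change of 0.12 (SE 0.092, limma adjusted p 0.395), which was 0.05 without DM replicate 2 and -0.02 after quantile normalization. Rps14, the gene lost in the 5q minus syndrome, had 13.19, 13.03 and 13.05 in WT and 13.14, 13.15 and 12.92 in DM (change -0.02, SE 0.088, limma adjusted p 0.904). The 7 ribosomal protein genes that the symbol rule misses were not called either. Rack1, a signalling scaffold on the small subunit, changed by -0.09, Rps3a1 by -0.03, and Fau, a fusion of a small subunit protein with a ubiquitin-like one, by -0.03. Rpl36al changed by -0.14, Rpl7l1 by 0.10 and Rpl22l1 by -0.01.

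Levels per length were compared on the log2 scale of the rlog value less the log2 of the annotated transcript length in kilobases, a quantity that depends on which transcript is taken. Large subunit genes ran from 9.35 (Rpl13a) to 14.73 (Rplp1), with a median of 13.13. Small subunit genes ran from 9.82 (Rps15a) to 14.82 (Rps12), with a median of 13.56. With copies summed, the median was 13.96 in the large and 14.20 in the small subunit.

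Promoter windows were printed for members at both ends of the range, to set the start of the messenger RNA beside the changes. Of the 76 members, 56 had a promoter in the RefSeq table of GRCm38.p6, with 67 promoters in all. Each window runs from 50 bases before the annotated start through the first 25 bases after it, and capitals mark the run of C followed by at least 4 C or T nearest to the start.
Rps28: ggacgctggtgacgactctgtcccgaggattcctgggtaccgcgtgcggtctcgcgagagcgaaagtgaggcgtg
Rpl39: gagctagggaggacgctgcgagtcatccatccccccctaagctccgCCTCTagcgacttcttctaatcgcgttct
Rps27: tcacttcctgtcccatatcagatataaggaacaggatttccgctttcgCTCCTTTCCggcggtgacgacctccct
Rpsa: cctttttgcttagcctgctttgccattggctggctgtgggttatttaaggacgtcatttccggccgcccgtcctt
Rps6: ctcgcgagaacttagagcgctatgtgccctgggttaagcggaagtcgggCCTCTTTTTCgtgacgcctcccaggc
Rpl13a: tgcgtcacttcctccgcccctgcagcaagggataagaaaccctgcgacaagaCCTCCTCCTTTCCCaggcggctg
The windows lie at chr17:33824538-33824612 (minus strand) for Rps28, chrX:37085198-37085272 (minus) for Rpl39, chr3:90213624-90213698 (minus) for Rps27, chr9:120127716-120127790 (plus) for Rpsa, chr4:86857343-86857417 (minus) for Rps6 and chr7:45128721-45128795 (minus) for Rpl13a. Of these windows, Rps28 and Rpsa hold no such run near the annotated start. The starts are those of RefSeq, and only that of Rps28 equals the gene's start in GENCODE M21. The Rpsa start is 120127766 against 120127689 there, and the Rpl39 start 37085222 against 37085402. The Rpsa window ends within a stretch of pyrimidines, so a run beginning there would be cut off. A C within 5 bases of the start and followed by at least 4 C or T, on the gene's strand, was also sought. It was found in 44.8% of the members' promoters and in 18.3% of all 32851 promoters. The base before that C was not considered, so runs that began further upstream also counted. The letters CCGGAA, on either strand from 250 bases before to 50 after the start, were found in 47.8% of the members' promoters and 14.9% of all, and AAGATGG, likewise, in 16.4% and 6.34%. On the opposite strand CCGGAA reads TTCCGG, whose first 4 letters can lie in a pyrimidine run. The run was present in members with a positive change (Rpl39 and Rps27) and in members with a negative change (Rps6 and Rpl13a).

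Other genes with TOP messenger RNAs lay close to the members. Of 20 such genes, mostly translation factors, limma called 0, where 13.9% of all tested genes were called. The median change was -0.03, with 15 below 0. The elongation factor genes Eef1a1 and Eef2 changed by -0.03 and -0.04. Pabpc1, which binds the poly(A) tail, had 15.72, 15.72 and 15.58 in WT and 15.54, 15.47 and 15.41 in DM, all lower than in WT, with a change of -0.20 (SE 0.091, limma adjusted p 0.173). Npm1, a nucleolar protein of ribosome assembly picked out after its values were seen, had 14.25, 14.09 and 13.88 in WT and 13.86, 13.75 and 13.62 in DM, without overlap. Its change was -0.33 (SE 0.108, limma adjusted p 0.0704), and it passed the threshold in 5 alternatives, among them quantile normalization, centring on the library median and a minimum mean of 5. Quantile normalization called 5 of the 20 genes lower, where it called 6.88% of all tested genes lower.

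Among 15 genes of mTORC1 and of the control of TOP messenger RNAs, limma called 2 higher and 0 lower, where 9.2% of all tested genes were called higher. The median change was 0.13, against 0.12 over the other protein-coding genes with a mean of at least 11. After quantile normalization the median was 0.03, with 2 genes called higher and 2 lower, where 6.88% of all tested genes were called lower. Rragc, a Rag GTPase that brings mTORC1 to the lysosome, had 11.98, 12.13 and 11.91 in WT and 12.36, 12.49 and 12.33 in DM. It rose by 0.39 (SE 0.08, limma adjusted p 0.012). Rheb, the GTPase that activates mTORC1 there, had 10.67, 10.72 and 10.63 in WT and 10.93, 11.04 and 10.99 in DM. It rose by 0.31 (SE 0.065, limma adjusted p 0.013). Both calls were lost without WT replicate 1 (adjusted p 0.0556 and 0.0601) and without DM replicate 2 (0.0618 and 0.0682) in limma, and that of Rheb also without DM replicate 3 (0.0505). Larp1, which binds the TOP motif itself, changed by -0.001, and Mtor by 0.13 (limma adjusted p 0.241). The 8 genes for dedicated chaperones of ribosomal proteins had a median change of 0.10, with 0 called, where 13.9% of all tested genes were. The 77 tested genes for proteins of the mitochondrial ribosome had a median of 0.07, and 0.002 after quantile normalization. Limma called 1 of the 77, where 13.9% of all tested genes were called. This was Mrpl52, which rose by 0.56 (SE 0.0803, limma adjusted p 0.00377), and after quantile normalization 1 gene was called higher and 1 lower.

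Markers of mature blood cells moved with the groups. All 9 neutrophil markers were called lower in DM, where 4.71% of all tested genes were. Their median change was -1.62, with a summed level (log2 of the linear sum) of 18.44 to 18.89 in WT and 16.82 to 17.74 in DM. All 7 macrophage markers were called higher, where 9.2% of all tested genes were. Their median was 0.86, with a summed level of 18.21 to 18.93 in WT and 19.25 to 19.62 in DM. Of 8 proliferation genes, 6 were called lower (median -0.42), and of 7 progenitor markers 2 were (median -0.01), against the same 4.71%. None of the 5 mast cell and 5 tested erythroid markers was called, where 13.9% of all tested genes were. Their medians were 0.08 (-0.15 after quantile normalization) and -0.25. After quantile normalization 9 neutrophil, 7 proliferation and 1 of the progenitor markers were called lower, where 6.88% of all tested genes were. In that setting 6 macrophage markers were called higher. No marker was at 0 in all libraries. The part of these cell markers in the levels of the ribosomal protein genes was not tested.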

How the data were processed

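Total RNA of 3 WT and 3 DM libraries was sequenced after depletion of abundant transcripts (AnyDeplete), per the labels' protocols. The deposited table holds rlog values on the log2 scale, a reading taken from its name and values (-1.97 to 21.88). The submitters' processing notes name cutadapt 2.6, STAR 2.7.3, DESeq2 1.30.0 and the build mm10; the counting tool, its annotation and its use of strand are not given in the sources used here. With no counts deposited, depth is unknown and no counting interval was made.

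The 142699 lines were merged to 55487 genes by identifier. Changes were tested with limma 3.58.1 (lmFit, eBayes with trend) in R 4.3.3 without covariates over 18766 genes with a mean of at least 3, with Benjamini-Hochberg adjustment; the test was tested on simulated data. Adjusted p-values in the text are from limma. Identifiers of 98.1% of genes matched GENCODE M21 on GRCm38, which gave lengths and positions. Copies were annotated pseudogenes and rt-named genes found with blastn 2.17.0 (at least 90% identity over at least 50% of the coding length), summed with the gene on the linear scale; this alternative was added after seeing the data. Values were plotted with matplotlib 3.10.9.

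Members and lists were chosen with earlier results of these data known. By rule, named genes were the 4 called members with the largest rise and fall per subunit (none was called), the 2 smallest changes per subunit, a group by known role (Rpl5, Rpl11, the stalk, Rps6, Rps14, Rps19, Rps27a, Rpsa, Rpl13a, paralog pairs), Mllt3, up to 4 called genes per list, and the genes nearest the minimum. Other genes were named after their values were seen. Alternatives were 2 other minimum means for tested genes, no trend, quantile normalization, median centring, a replicate block, each library left out, and the copies summed. Some genes, and a copy's sequence, are not reported here.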

Additional observations from a re-analysis of the deposited data

How the results depend on the processing

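The number of genes called over all tested genes was 2611, and from 1119 to 3475 with a library left out. Leaving out WT replicate 1 gave 1185, leaving out DM replicate 2 gave 1119 and leaving out DM replicate 3 gave 1537. With no library left out it ran from 1799 (no filter on the mean) to 3742 (replicate block). No member was called with any library left out, with another minimum mean, without the trend, after median centring or with copies summed, while from 0 to 6 members had an unadjusted limma p under 0.05. Quantile normalization called 9 large and 8 small subunit members lower, with medians of -0.15 and -0.19. It also put 10 named members below 0: Rpl32 (-0.18), Rpl26 (-0.12), Rpl11 (-0.10), Rplp1 (-0.14), Rplp2 (-0.13), Rps19 (-0.0215), Rpl10 (-0.14), Rpl37 (-0.0173), Rpl31 (-0.0142) and Rps24 (-0.0814), and Rpl24, below the minimum, at 0.0611. With copies summed, Rps27 (-0.0101), Rpl37 (-0.0326) and Rpl31 (-0.00601) were below 0. The cause was not tested. The replicate block called 1 large and 2 small subunit members lower. The labels do not say that numbers pair libraries, so they were not taken as pairs. Deviations of same-numbered libraries correlated at 0.49, 0.12 and 0.04 over all tested genes, and those of differently numbered ones at -0.34 to 0.12. Over the members, same-numbered libraries had 0.31, -0.26 and -0.35, and the others ran from -0.41 to 0.44. Such a correlation takes out a shift shared by the genes compared, so it cannot decide whether libraries pair. Spearman's rho between change and coding length stayed between -0.73 and -0.64 in the 14 settings. With 3 libraries a group, SE of 0.075 or more leave changes of the size seen in members undecided, and unknown depth adds a limit that cannot be stated.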

Other observations

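Mrpl52 was the 1 gene of the mitochondrial ribosome that limma called. It had 9.57, 9.81 and 9.62 in WT and 10.17, 10.32 and 10.19 in DM, so that every DM value was above every WT value, while the changes of the 77 tested genes of that list ran from -0.18 to 0.56 with 62 above 0 and 15 below. In 17 of them all DM values were above all WT values, near the 21.5% found over all tested genes, and in 0 were all below, against 14.3% over all tested genes.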
